A study of Arabidopsis thaliana with 12 samples.

Results

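The response described here is that of Arabidopsis thaliana plants overexpressing ARR22 (ARR22-ox) to the cytokinin t-zeatin. The 3 arrays labelled ARR22-ox with 20 µM t-zeatin for 3 h were set against the 3 arrays labelled ARR22-ox with no treatment, 6 of the 12 arrays of the series. The arrays were chosen by source name and treatment label alone, and no measured value entered the choice. RNA came from complete plants, 21 days old and vegetative, in all 4 groups. The other 6 arrays are of the wild type Col-0 with the same t-zeatin treatment and of untreated Col-0. Their main use was to ask whether the response of ARR22-ox differed from that of Col-0. They also served to compare array quality and the level of the overexpressed gene. Some alternative settings of the ARR22-ox fit drew on them as well, such as the fit of all 12 arrays. The promoter that drives ARR22 and the number of independent lines are not given in the sources used here. The untreated plants had no mock treatment. The labels name no batch, so any batch effect that coincides with a group cannot be told apart from the treatment. Nothing says that the 3 arrays of a group came from separate plants, and p-values measure the spread between these arrays.

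Cytokinins are perceived by membrane histidine kinases, which pass phosphate through phosphotransfer proteins to response regulators in the nucleus. Type-B response regulators then switch on target genes, among them the type-A response regulators, which damp the pathway and serve as early markers of cytokinin action. ARR22 is a type-C response regulator. Like the type-A proteins it is little more than a receiver domain, and it is thought to draw phosphate away from the phosphotransfer proteins. Plants that overexpress it are known to be small and to respond weakly to cytokinin.

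All probe sets were measured as one-colour signal, which the authors computed with MAS5, and are given here on that linear scale or as log2 changes, t-zeatin over untreated. RR22 (AT3G04280), the listed symbol of ARR22, had signals of 2792, 2752 and 3132 on the ARR22-ox t-zeatin arrays and 2857, 3248 and 3661 on the ARR22-ox untreated arrays. No Col-0 array exceeded 1.92. The transcript was thus high on every array labelled ARR22-ox, and its change with t-zeatin did not pass the test (log2 change -0.17 ± 0.13, SE, or -0.077 without untreated replicate 3).

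One array stood apart from its group. ARR22-ox untreated replicate 3 had a mean Pearson correlation of 0.936 to the other arrays of its group, over the log2 signals of all non-control probe sets, while the other 11 arrays lay between 0.948 and 0.964. Its signal at the 3′ end of the GAPDH control was 1.82 times that at the 5′ end, and for the second actin control 3.47 times, while no other array exceeded 1.08 for GAPDH or 1.38 for this actin control. Such ratios are a measure of RNA and label length. The median SD between the 3 arrays was 0.150 for ARR22-ox t-zeatin, against 0.311 for ARR22-ox untreated, on the log2 scale over all non-control probe sets. For untreated replicates 1 and 2 alone it was 0.125. For the genes named below the change is therefore given with and without replicate 3, and its part in the results beyond those values was not tested.

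At a limma adjusted p under 0.05, 5123 of 22746 non-control probe sets (22.5%) changed, 2610 up (11.5%) and 2513 down (11.0%). Without ARR22-ox untreated replicate 3, 8789 probe sets (38.6%) passed, 4404 up (19.4%) and 4385 down (19.3%). Without any 1 of the 3 t-zeatin arrays between 2811 and 2929 passed. Of the calls with 6 arrays, 2603 rises and 2466 falls passed in the same direction without that array, 54 no longer passed, and none turned round. Called changes of at least 2-fold numbered 1092 up and 889 down, and changes of at least 8-fold 69 up and 59 down. The median change over all probe sets was -0.006, and -0.07 with equal array medians. The difference of the responses, ARR22-ox minus Col-0, was called for 6427 probe sets (28.3%), or 8574 (37.7%) without untreated replicate 3. Over genes with 1 name, for which the brightest probe set stands, 9.44% of 13355 rose and 10.4% fell, and these are the shares against which the counts of listed genes below are read. Their median change was -0.027. Without replicate 3 the shares were 16.5% and 17.7%, and the median was 0.02. The gene lists below were written from textbook knowledge, with earlier results of these data known. Their counts are therefore descriptions, and a count above these shares is no test of a list.

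**Figure D1:**
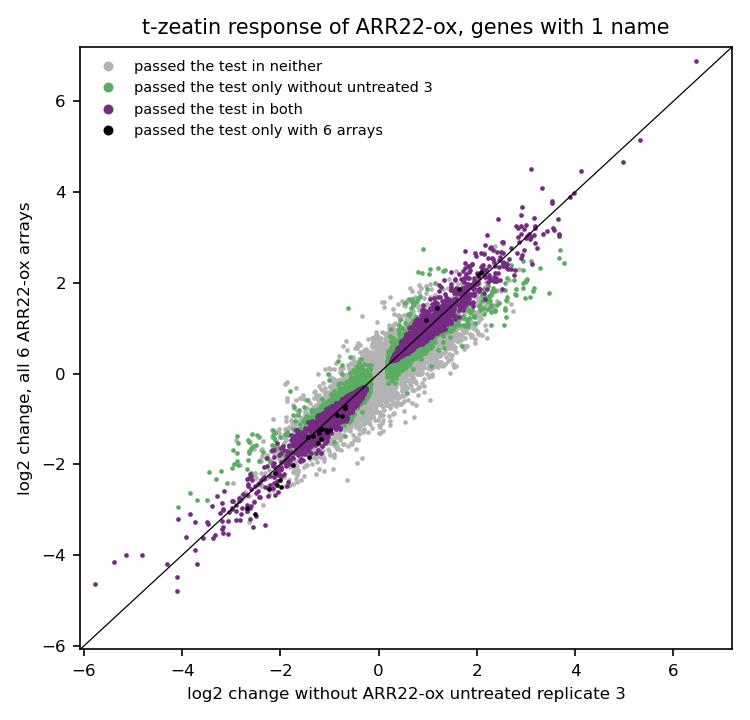
Log2 change of each gene with 1 name, ARR22-ox t-zeatin over ARR22-ox untreated. The vertical axis uses all 6 arrays and the horizontal axis leaves out untreated replicate 3. Points in purple passed the test in both fits and lie on the same side of 0 in both. Points in green passed only without replicate 3.

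Neither measured type-A response regulator rose in ARR22-ox. RR16 (AT2G40670), a type-A response regulator also known as ARR16, had signals of 10.1, 8.36 and 7.23 with t-zeatin and 13.8, 14.3 and 24.9 without it in ARR22-ox. In Col-0 it had 232, 236 and 264 with t-zeatin and 23.7, 26.6 and 31.1 without it. The ARR22-ox change was -1.01 ± 0.33 (SE; limma adjusted p = 0.0671), downward in sign and short of the threshold. It passed as a fall in the fit of all 12 arrays (limma adjusted p = 0.00435), which also gives the Col-0 change of 3.18, and with the filter at the 40th percentile (limma adjusted p = 0.0391). Without replicate 3 the ARR22-ox change was -0.73 and did not pass. The difference of the responses, ARR22-ox minus Col-0, was -4.18 ± 0.32 (SE; limma adjusted p = 1.17e-06). ARR15, another type-A regulator, had 1.86, 8.21 and 8.46 with t-zeatin and 7.66, 12.2 and 10.5 without it in ARR22-ox, all dim values. Its Col-0 signals were 152, 155 and 135 with t-zeatin and 12.1, 12.6 and 11.7 untreated, and its difference of responses was -4.57. Its ARR22-ox change was -0.97, or -0.94 without untreated replicate 3 and -0.25 without t-zeatin replicate 1, and passed in none of these fits. Of 10 listed type-A regulators only RR16 and ARR15 had a probe set paired with 1 gene, which is what measured means for listed genes. The others were not examined, and this does not show that the array lacks them. In RR16 and ARR15 the 3 t-zeatin arrays of Col-0 stood far above the other 9 arrays.

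Of the genes that inactivate cytokinins by glucosylation, UGT76C2 (AT5G05860) had 12.1, 16 and 25.2 with t-zeatin and 9.83, 16.4 and 24.2 untreated in ARR22-ox. Those ranges overlap, and the change of 0.11, or 0.42 without untreated replicate 3, did not pass. It had 202, 215 and 208 with t-zeatin and 39.8, 44.5 and 31.9 untreated in Col-0, and the difference of responses was -2.34 (limma adjusted p = 0.00142). Its sign in ARR22-ox turned when untreated replicate 1 (-0.23) or t-zeatin replicate 3 (-0.18) was left out. UGT76C1, which has the same activity, had 33.0, 49.1 and 35.1 with t-zeatin against 59.7, 58.9 and 50.9 untreated, a change of -0.55 that did not pass (limma adjusted p = 0.0763). It passed without untreated replicate 3 (-0.63, limma adjusted p = 0.021), without t-zeatin replicate 2, with the filter, with array weights and in the fit of all 12 arrays (limma adjusted p from 0.0137 to 0.0476). RR18, a type-B regulator also known as ARR18, was dim, with 2.27, 1.73 and 4.50 after t-zeatin and 6.28, 17.3 and 2.96 untreated in ARR22-ox. Its change of -1.39 did not pass, was -0.73 without untreated replicate 2, and passed without untreated replicate 3 (-1.998) and with array weights (-1.90). No receptor or phosphotransfer gene was measured under 1 name.

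**Figure D2:**
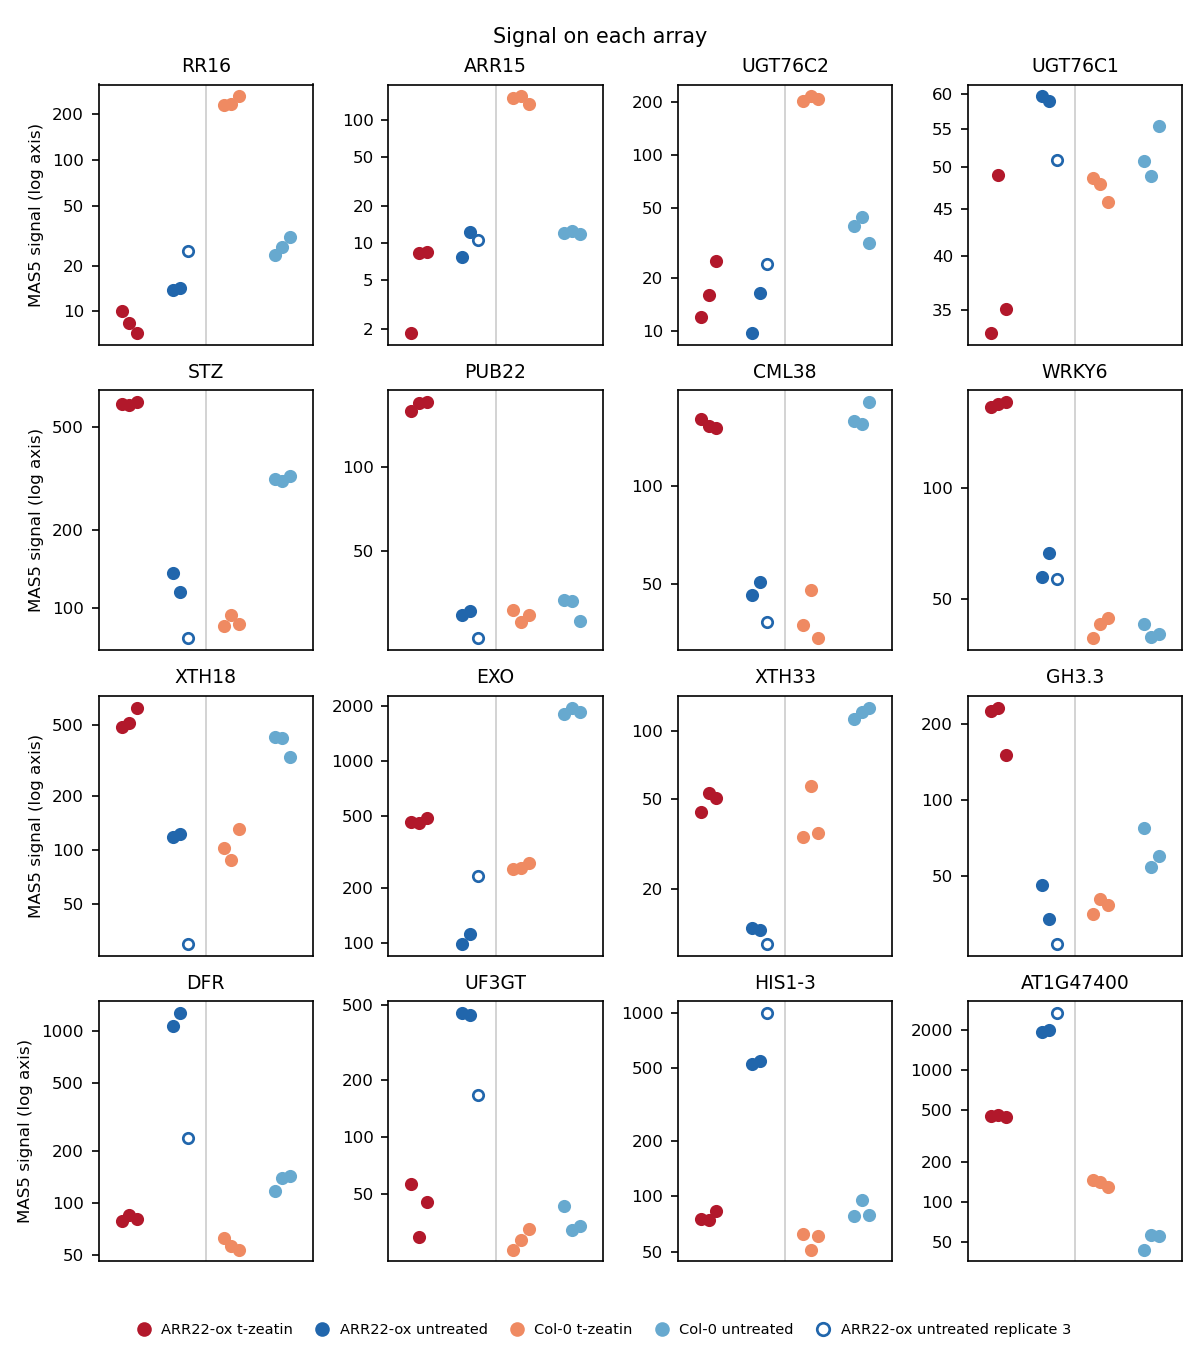
MAS5 signal on each array, on a log axis, for 16 genes named in the text, with the 4 groups side by side in each panel and ARR22-ox untreated replicate 3 as an open circle. RR16, ARR15 and UGT76C2 are high only on the Col-0 t-zeatin arrays. PUB22 and WRKY6 are highest on the ARR22-ox t-zeatin arrays, and DFR, UF3GT and HIS1-3 on the ARR22-ox untreated arrays.

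Genes of rapid stress and wound responses rose in ARR22-ox. Of 33 listed genes 10 were measured, and 8 rose and none fell, a share of 8 in 10 against 9.44% of all genes, with a median change of 1.76. With untreated replicate 3 left out all 10 rose, at a median of 1.56, against 16.5% of all genes, as WRKY53 (0.87, against 0.62 with 6 arrays) and CML37 then passed too. CML37 had 17.2, 20.5 and 21.5 with t-zeatin and 10.4, 10.6 and 0.224 untreated, and its change was 2.75 with the near-zero value of replicate 3 and 0.90 without it. In Col-0, where 11.3% of genes fell and 13.1% rose, 6 of the 10 fell and none rose. The difference of responses was called, upward, for 8 of the 10, against 11.0% of all genes.

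STZ (AT1G27730), a zinc finger repressor of stress responses also known as ZAT10, had 613, 612 and 626 with t-zeatin and 136, 116 and 76.5 untreated in ARR22-ox. In Col-0 it had 85.4, 94.3 and 86.9 with t-zeatin and 317, 309 and 324 untreated. The groups do not overlap in either genotype, and the direction is opposite: the change was 2.54 ± 0.20 in ARR22-ox (SE; limma adjusted p = 0.000261) and -1.83 in Col-0. PUB22 (AT3G52450), a U-box ubiquitin ligase that restrains immune signalling, had 158, 169 and 170.5 with t-zeatin and 29.7, 30.5 and 24.4 untreated in ARR22-ox. Its Col-0 signals lay between 27.8 and 33.3 on all 6 arrays, so it was high on the ARR22-ox t-zeatin arrays alone, with a change of 2.56. The related PUB23 and PUB24 rose by 2.28 and 0.53, and the rise of PUB24 was lost without any 1 of the t-zeatin arrays (limma adjusted p from 0.0631 to 0.0836). The changes without untreated replicate 3 were 2.30 for STZ, 2.46 for PUB22, 2.18 for PUB23 and 0.45 for PUB24.

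The calmodulin-like calcium sensor gene CML38 (AT1G76650) had 161, 153 and 151 with t-zeatin and 46.2, 50.6 and 38.0 untreated in ARR22-ox. In Col-0 the order was turned, with 37.2, 47.7 and 33.8 after t-zeatin and 159, 155 and 182 untreated. CML42, of the same family, followed the same pattern at 299, 311 and 321 with t-zeatin and 76.5, 98.6 and 109 untreated in ARR22-ox (change 1.73, or -1.14 in Col-0). WRKY6, a transcription factor linked to senescence and phosphate supply, had 167, 169 and 172 with t-zeatin and 57.4, 66.8 and 56.7 untreated in ARR22-ox. Its Col-0 change was 0.046 and did not pass. WRKY22, a factor of immune signalling, had 54.1, 59.9 and 62.4 with t-zeatin and 25.7, 30.0 and 35.8 untreated in ARR22-ox, while in Col-0 it fell by 2.28. The differences of responses were 3.87 for CML38, 2.86 for CML42, 1.45 for WRKY6 and 3.24 for WRKY22. The ARR22-ox changes of WRKY6 and WRKY22 were 1.49 and 0.96, and that of CML38 was 1.80. Without untreated replicate 3 they were 1.68 for CML38, 1.83 for CML42, 1.45 for WRKY6 and 1.08 for WRKY22.

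Xyloglucan endotransglucosylases cut and rejoin xyloglucans of the growing wall, and EXO acts in brassinosteroid-promoted growth. Of 15 listed genes of this group 5 were measured, 4 rose and none fell, with and without untreated replicate 3, at a median of 1.77 or, without it, 1.88. Of all genes 9.44% rose, or 16.5% without it. XTH18 (AT4G30280) had 487, 517 and 627 with t-zeatin and 119, 123 and 29.9 untreated in ARR22-ox. The lowest value is that of untreated replicate 3, and the change was 2.83 ± 0.51 (SE; limma adjusted p = 0.00722), or 2.16 without it. EXO (AT4G08950) had 461, 457 and 482 with t-zeatin and 98.7, 112 and 232 untreated in ARR22-ox, against 253, 258 and 274 with t-zeatin and 1804, 1953 and 1843 untreated in Col-0. Every ARR22-ox array thus lay below every untreated Col-0 array, and EXO rose by 1.77 in ARR22-ox while it fell by 2.83 in Col-0. XTH33 had 43.8, 53.4 and 50.6 with t-zeatin and 13.4, 13.2 and 11.4 untreated in ARR22-ox, a change of 1.96, or 1.18 with an offset of 16 added to the signals. XTH19 rose by 1.38, a call that was lost without any 1 of the t-zeatin arrays (limma adjusted p from 0.0719 to 0.0804) or without the variance trend. XTH20, with values from 9.44 to 18.0 after t-zeatin and 9.36 to 17.8 untreated, showed no change that passed, with or without replicate 3. Leaving out untreated replicate 3 gave changes of 2.15 for EXO, 1.88 for XTH33 and 0.96 for XTH19. The difference of responses was called, upward, for all 4 that rose, at 4.72 for XTH18, 4.60 for EXO, 3.51 for XTH33 and 1.997 for XTH19. The share of all genes called upward in the difference was 11.0%.

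Of 9 measured expansins, which loosen the wall, 3 fell and none rose, at a median of -0.45, against 10.4% and 9.44% of all genes. In Col-0 3 of the 9 fell and 1 rose, against 11.3% and 13.1% of all genes, at a median of -0.36. The difference of responses was called downward for 4 and upward for 1, against 14.4% and 11.0% of all genes, and its median was -0.054. Without untreated replicate 3, 2 rose and 5 fell in ARR22-ox at a median of -0.72, against 16.5% and 17.7% of all genes. EXPA4 (AT2G39700) had 60.9, 69.0 and 62.6 with t-zeatin and 226, 199 and 104 untreated in ARR22-ox (change -1.38 ± 0.27, SE; limma adjusted p = 0.0108). EXPB3 had 25.4, 26.5 and 27.0 with t-zeatin and 69.2, 64.0 and 41.1 untreated, and fell by 1.11. EXPB1 was dim, with at most 20.2 in ARR22-ox. Its fall of 2.44 was -0.75 with the offset and was lost without untreated replicate 1 or 2 or t-zeatin replicate 1 or 3 (limma adjusted p from 0.0613 to 0.0699). With untreated replicate 3 left out, the changes were -1.73 for EXPA4, -1.34 for EXPB3 and -2.65 for EXPB1. The differences of responses were called for all 3, at -1.84 for EXPA4, -0.75 for EXPB3 and -2.40 for EXPB1.

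The 5 measured genes of anthocyanin and flavonol synthesis fell in ARR22-ox, and the other listed genes had no probe set paired with 1 gene. Of 22 listed genes of this pathway 5 were measured, and all 5 fell, with and without untreated replicate 3, against 10.4% of all genes (17.7% without it), at a median of -2.93 or, without it, -3.40. In Col-0, where 11.3% of all genes fell and 13.1% rose, none of the 5 passed in either direction. DFR (AT5G42800), dihydroflavonol reductase, the entry to anthocyanins, had 78.0, 84.7 and 80.5 with t-zeatin and 1066, 1272 and 239 untreated in ARR22-ox. Its Col-0 signals were 62.8, 55.9 and 53.4 with t-zeatin and 118, 139 and 144 untreated. Those ranges do not overlap, and the Col-0 change of -1.22 was short of the threshold (limma adjusted p = 0.0626). The ARR22-ox t-zeatin arrays lay within the range of the Col-0 arrays, and all 3 ARR22-ox untreated arrays above it. UF3GT (AT5G54060), an anthocyanin glycosyltransferase, had 56.4, 29.7 and 45.1 with t-zeatin and 451, 440.1 and 167 untreated in ARR22-ox, and no Col-0 array exceeded 43.3. AT4G14090, placed in the list as a glucosyltransferase of the same pathway, had 47.4, 38.8 and 31.4 with t-zeatin and 485, 540.4 and 201 untreated. AT5MAT, an anthocyanin malonyltransferase, had 16.2, 17.7 and 16.5 with t-zeatin and 88.3, 74.9 and 33.5 untreated, and UGT78D2, a flavonoid 3-glucosyltransferase, had 86.1, 93.2 and 80.2 with t-zeatin and 262, 329 and 157 untreated.

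On ARR22-ox untreated replicate 3 all 5 genes had a lower signal than on replicates 1 and 2, as had 36.6% of all probe sets. The change of DFR was -3.08 ± 0.57 (SE; limma adjusted p = 0.00814) with 6 arrays and -3.85 without it, that of UF3GT -2.93 and -3.40, and that of AT4G14090 -3.28 and -3.73. AT5MAT changed by -1.85, or -2.28 without it, and UGT78D2 by -1.47, or -1.77. The differences of responses were called, downward, for all 5, against 14.4% of all genes, and also without replicate 3, against 18.8%. They ranged from -2.95 for AT4G14090 to -1.87 for DFR. A further pair of flavonoid genes was picked after the values were seen. CHIL, a chalcone isomerase-like protein that aids flavonoid synthesis, had 79.7, 80.9 and 78.2 with t-zeatin and 452, 517 and 232 untreated in ARR22-ox, a change of -2.25. UGT78D1, a flavonol rhamnosyltransferase, had 57.0, 61.7 and 60.0 with t-zeatin and 168, 174 and 118 untreated, a change of -1.34, and rose in Col-0. Without replicate 3 the changes were -2.60 for CHIL and -1.52 for UGT78D1.

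Jasmonate-related genes moved both ways: of 6 measured 3 rose and 1 fell, against 9.44% and 10.4% of all genes. AT2G38240, placed in the list with the jasmonate-responsive oxygenases, had 939.6, 1039 and 957 with t-zeatin and 129, 129 and 27.5 untreated in ARR22-ox. JRG21 (AT3G55970), a jasmonate-regulated oxygenase, had 662, 663 and 652 with t-zeatin and 195, 196 and 60.3 untreated. On untreated replicate 3 both were well below their level on replicates 1 and 2, and without it the changes were 2.93 in place of 3.67 and 1.76 in place of 2.32. Both also rose in Col-0, by 1.998 and 1.22, and their differences of responses did not pass. That of AT2G38240, 1.67 with all 12 arrays, was 0.93 without replicate 3 and then passed (limma adjusted p = 0.000109). PDF1.2, a plant defensin gene, had 1704, 1768 and 1729 with t-zeatin and 1083, 994 and 427 untreated in ARR22-ox, and fell in Col-0 by 1.14. Its ARR22-ox change of 1.17 was 0.74 without untreated replicate 3, and its call was lost without any 1 of the t-zeatin arrays (limma adjusted p from 0.112 to 0.12) or without the variance trend. THI2.1, a thionin gene, had 41.7, 42.3 and 42.7 with t-zeatin and 95.1, 95.6 and 312 untreated in ARR22-ox. Its fall of 1.74, or 1.18 without replicate 3, was likewise lost without any 1 of the t-zeatin arrays (limma adjusted p = 0.0839).

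GH3.3 (AT2G23170), which inactivates auxin by joining it to amino acids, had 225, 232 and 151 with t-zeatin and 46.0, 33.9 and 26.9 untreated in ARR22-ox, and 35.3, 40.7 and 38.4 with t-zeatin and 77.1, 54.5 and 59.7 untreated in Col-0. The change was 2.52 ± 0.24 in ARR22-ox (SE; limma adjusted p = 0.00054) and -0.73 in Col-0. Without untreated replicate 3 the ARR22-ox change was 2.33. It was the only one called, with 6 arrays, of 4 measured auxin genes, where 9.44% of all genes rose and 10.4% fell. IAGLU, which glucosylates indole-3-acetic acid and was picked after the values were seen, had 376, 392 and 394 with t-zeatin and 71.4, 92.5 and 63.3 untreated in ARR22-ox. It rose by 2.37, or 2.25 without replicate 3, and in Col-0 by 1.19, and the difference of responses of 1.19 was called (limma adjusted p = 0.0027).

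Of 4 measured senescence genes 2 rose and 1 fell, against 9.44% and 10.4% of all genes. SAG101, which acts in defence and senescence, had 48.1, 57.1 and 38.4 with t-zeatin and 25.3, 34.6 and 25.8 untreated in ARR22-ox. Its rise of 0.74 was lost under 3 other settings of the arrays or the model and without untreated replicate 1 or any 1 of the t-zeatin arrays (limma adjusted p from 0.055 to 0.165). WRKY6 is the other gene that rose. SAG29 (AT5G13170), also known as the sugar transporter SWEET15, had 34.0, 42.3 and 32.0 with t-zeatin and 144, 173 and 113 untreated in ARR22-ox, and its fall of 1.98 had a counterpart of 1.47 in Col-0. The difference between those falls did not pass. Without untreated replicate 3 the changes were 0.68 for SAG101 and -2.14 for SAG29.

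AT1G47400, placed in the list as an iron-deficiency peptide gene, had 445, 459 and 440.3 with t-zeatin and 1938, 1999.9 and 2686 untreated in ARR22-ox. In Col-0 it had 147, 141 and 129 with t-zeatin and 43.6, 56.4 and 55.3 untreated. It fell by 2.29 in ARR22-ox and rose by 1.43 in Col-0, and every ARR22-ox array lay above every Col-0 array. The other 2 measured iron genes, PYE and BHLH101, did not pass. APL3 and APL4, large subunits of ADP-glucose pyrophosphorylase, which makes the glucosyl donor of starch, both fell: APL3 had 114, 107 and 102 with t-zeatin and 443, 504 and 188 untreated, and APL4 had 18.2, 13.5 and 13.6 with t-zeatin and 58.6, 72.2 and 35.4 untreated. The change of APL3 was -1.69 (limma adjusted p = 0.0116), lost without t-zeatin replicate 3 (limma adjusted p = 0.0525), and that of APL4 was -1.83, or -1.17 with the offset. The changes without untreated replicate 3 were -2.14 for AT1G47400, -2.13 for APL3 and -2.12 for APL4.

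Of 4 measured genes of abscisic acid, cold and drought 1 rose and 1 fell, and 1 rose and 3 fell without untreated replicate 3. The shares of all genes were 9.44% and 10.4%, or 16.5% and 17.7% without it. HIS1-3 (AT2G18050), a linker histone gene induced by drought and abscisic acid, had 75.4, 74.2 and 82.7 with t-zeatin and 529, 544 and 996 untreated in ARR22-ox. The 6 Col-0 signals lay between 51.2 and 95.2, so that the untreated ARR22-ox arrays alone were high. It fell by 3.09, or 2.79 without replicate 3. COR47, a dehydrin gene, rose by 0.46, or 0.35 without replicate 3, a call lost without any 1 of the t-zeatin arrays (limma adjusted p from 0.0861 to 0.0978), without the variance trend and with equal array medians. COR15A, a cold-induced chloroplast protein gene, had 204, 223 and 229 with t-zeatin and 331, 323 and 45.5 untreated. Its direction depends on untreated replicate 3: the change was 0.36 with it and did not pass, and -0.58 without it, where it passed (limma adjusted p = 0.000104). COR15B changed by -0.079 with it, which did not pass, and -0.56 without it, which did. The clock gene GI had 64.0, 65.4 and 62.2 with t-zeatin and 37.9, 35.9 and 6.88 untreated, a change of 1.60 that did not pass. It passed without replicate 3 (0.79), with array weights (0.91) and in the fit of all 12 arrays (1.60, limma adjusted p = 0.0211). In glucosinolate synthesis, BCAT4, an enzyme of methionine chain elongation, had 343, 341 and 332 with t-zeatin and 784, 824 and 834 untreated and fell by 1.26. UGT74B1, which glucosylates the thiohydroximate precursors, had 444, 439 and 418 with t-zeatin and 274, 302 and 268 untreated and rose by 0.63. Without replicate 3 their changes were -1.25 for BCAT4 and 0.59 for UGT74B1.

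By the naming rule, the genes with the largest changes were 15 rises between 3.25 and 6.89 and 15 falls between 2.43 and 4.18 on the log2 scale, each called with and without untreated replicate 3 and with no overlap between the groups. Only 3 of the rises and 4 of the falls have a symbol, and the rest are listed under their locus alone. AT3G23550 had 1898, 1816 and 1842 with t-zeatin and 101, 137 and 117 untreated in ARR22-ox, and the Col-0 signals lay between 499 and 785. Its change of 3.98 ± 0.12 (SE; limma adjusted p = 1.31e-05) and that of AT5G48430, with 316, 337 and 327 after t-zeatin and 20.3, 23.5 and 22.3 untreated (3.89 ± 0.11, SE), are among those that moved least without replicate 3, at 3.97 and 3.90. AT2G22880 had 273, 282 and 265 with t-zeatin and 20.8, 27.1 and 14.9 untreated, a change of 3.75, and its Col-0 change of 0.30 did not pass. AT3G60420 (3.43) and AT5G62280 (3.42) rose in ARR22-ox and fell in Col-0, by 0.80 and 1.49. AT5G62360 rose by 3.27 and AT5G12340 by 3.25. Leaving out untreated replicate 3 gave changes of 3.53 for AT2G22880, 3.17 for AT3G60420, 3.65 for AT5G62280, 2.998 for AT5G62360 and 2.80 for AT5G12340.

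The first places of the ranking rest on dim untreated values. AT2G43140 had 108, 87.2 and 89.7 with t-zeatin and 1.58, 0.740 and 0.433 untreated in ARR22-ox, and its change of 6.89 was 2.71 with the offset of 16. AT5G04310 had 121, 97.8 and 98.7 with t-zeatin and 2.88, 2.42 and 3.71 untreated, with 5.15 and, with the offset, 2.67. For both genes the direction and the call were the same with the offset, and only the size moved. AT5G54720 had 45.1, 47.2 and 43.7 with t-zeatin and 3.82, 7.26 and 0.288 untreated, with a change of 4.50, of 3.11 without untreated replicate 3 and of 1.65 with the offset. Its call was lost without any 1 of the t-zeatin arrays (limma adjusted p from 0.0778 to 0.0804) and without the variance trend. CCR2 (AT1G80820), a cinnamoyl-CoA reductase of lignin synthesis, had 103, 101 and 111 with t-zeatin and 24.3, 15.5 and 2.52 untreated. Its change was 3.41, with 2.43 without replicate 3, 2.08 with the offset, and no call without any 1 of the t-zeatin arrays (limma adjusted p from 0.0613 to 0.0652). AT4G28550 rose by 3.25, or 1.43 with the offset. With untreated replicate 3 left out, the changes were 6.45 for AT2G43140, 5.32 for AT5G04310 and 2.91 for AT4G28550.

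Of the 15 named falls, OCT1 (AT1G73220), an organic cation and carnitine transporter, came first. It had 6.51, 2.25 and 14.6 with t-zeatin and 78.5, 76.3 and 215 untreated in ARR22-ox, and 0.875, 0.937 and 0.614 with t-zeatin and 9.86, 10.1 and 7.77 untreated in Col-0. It fell in both genotypes, by 4.18 in ARR22-ox (2.44 with the offset) and 3.53 in Col-0, with no called difference. All 6 Col-0 signals are dim, and the Col-0 change was not computed with the offset. AT5G57785 had 67.2, 71.3 and 71.5 with t-zeatin and 606, 657 and 442 untreated, a change of -3.002 ± 0.15 (SE; limma adjusted p = 5.87e-05). AT5G48490 had 60.3, 60.5 and 56.2 with t-zeatin and 364, 358 and 1226 untreated, the last value being that of replicate 3. It changed by -3.20 and fell in Col-0 as well, by 1.48, and the difference of -1.73 was called. AT2G20870 had 22.1, 25.2 and 28.2 with t-zeatin and 135, 131 and 256 untreated in ARR22-ox, and between 27.4 and 33.7 on the 6 Col-0 arrays, the pattern of HIS1-3, and fell by 2.73. AT1G67750 and AT5G62210 fell by 2.73 and 2.66. Changes that rest on dim t-zeatin values were -3.57 for AT1G66850, -3.39 for AT1G22160, -2.51 for AT5G22430, -2.47 for AT1G10640 and -2.43 for AT1G63240, and with the offset these falls lay between 1.28 and 2.04. Without untreated replicate 3 the changes were -3.69 for OCT1, -3.17 for AT5G57785, -2.61 for AT5G48490, -2.41 for AT2G20870, -2.44 for AT1G67750, -2.75 for AT5G62210, -3.33 for AT1G66850, -3.16 for AT1G22160, -2.26 for AT5G22430, -2.53 for AT1G10640 and -2.45 for AT1G63240.

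The difference of responses was called in the direction of the ARR22-ox change for 14 of the 15 rises and 13 of the 15 falls. The exceptions were AT2G38240 among the rises and OCT1 and AT1G66850 among the falls. With untreated replicate 3 left out it was called for all 15 rises and for 13 of the falls. In Col-0, 3 of the rises rose and 3 fell, 6 of the falls fell and none rose, and the other 18 did not pass. The Col-0 calls come from the fit of all 12 arrays, which includes ARR22-ox untreated replicate 3 and was not repeated for Col-0 without it. A gene that did not pass is thus not shown to be flat in Col-0. AT5G54720 had 21.0, 15.2 and 11.7 with t-zeatin and 60.9, 54.8 and 48.6 untreated in Col-0. Those ranges do not overlap, yet its change of -1.81 did not pass (limma adjusted p = 0.142). Over all 22746 probe sets the Pearson correlation of the ARR22-ox changes with the Col-0 changes, which share no array, was 0.035, and 0.010 without untreated replicate 3. Both values include dim probe sets, and the correlation was not computed with a filter or an offset. The named rises and falls were chosen for the size of their ARR22-ox change, which is part of the difference.

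**Figure D3:**
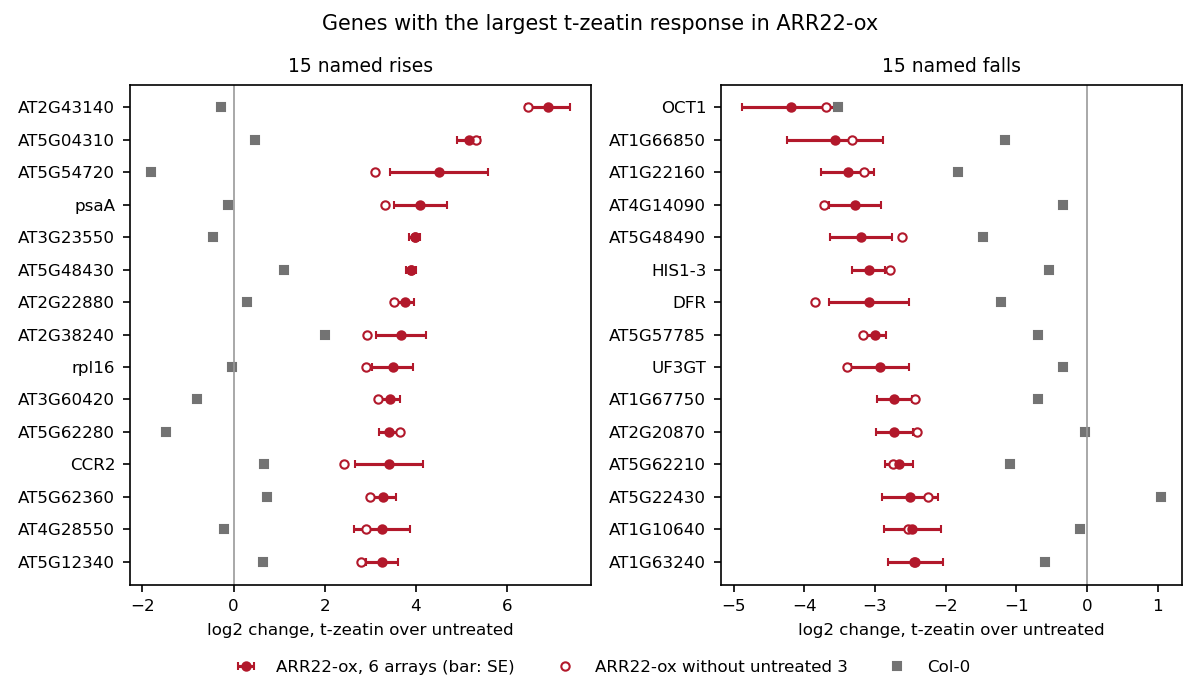
Log2 change of the 15 named rises (left) and 15 named falls (right), t-zeatin over untreated. Filled red circles give ARR22-ox with all 6 arrays (bar, SE), open red circles ARR22-ox without untreated replicate 3, and grey squares Col-0. The ARR22-ox changes keep their sign without replicate 3. Those of AT5G54720, CCR2, psaA, DFR and AT2G38240 differ the most between the fits. OCT1 stands out with a Col-0 change close to its ARR22-ox change, though its Col-0 signals are dim.

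Among further genes with a symbol, taken in the order of their change and named after the values were seen, EFR, the receptor of the bacterial elongation factor Tu, had 43.7, 45.3 and 39.7 with t-zeatin and 11.0, 2.99 and 3.94 untreated in ARR22-ox. Its rise of 3.08 was 1.44 with the offset. ARL (AT2G44080), an ARGOS-like gene that promotes organ growth, had 920.1, 865 and 866 with t-zeatin and 103, 91.9 and 183 untreated, a change of 2.88, while in Col-0 it fell by 0.91. MSRB9, a methionine sulfoxide reductase, had 1178, 1235 and 1249 with t-zeatin and 223, 226 and 194 untreated in ARR22-ox and rose in both genotypes, by 2.51 in ARR22-ox and 1.38 in Col-0, with a called difference of 1.13. GAT1_2.1, a glutamine amidotransferase, had 567, 562 and 518 with t-zeatin and 111, 122 and 154 untreated, and SUFE2, an activator of plastid cysteine desulfurase, had 409, 405 and 388 with t-zeatin and 92.3, 90.4 and 65.2 untreated. GAT1_2.1 rose by 2.10 and SUFE2 by 2.29, and their Col-0 changes of 0.054 and 0.19 did not pass. Smaller rises were those of AR781 (2.35), of the calmodulin-like gene CML41 (2.08) and of ACA.l (1.89), of which AR781 and ACA.l fell in Col-0. The changes without untreated replicate 3 were 2.90 for EFR, 3.18 for ARL, 2.44 for MSRB9, 2.24 for GAT1_2.1, 2.13 for SUFE2, 2.09 for AR781, 1.67 for CML41 and 1.70 for ACA.l.

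Falls of the same kind were led by SWEET13, a sucrose transporter, with 23.5, 25.1 and 17.7 after t-zeatin and 108, 110.4 and 108 untreated in ARR22-ox, a change of -2.32. STOMAGEN (AT4G12970), a peptide that promotes stomata, had 39.9, 35.7 and 35.0 with t-zeatin and 147, 143 and 170.3 untreated in ARR22-ox, and between 123 and 177 on the 6 Col-0 arrays. Here the ARR22-ox t-zeatin arrays alone were low, and the change was -2.06. DI21, a drought-induced gene, had 203, 211 and 188 with t-zeatin and 614, 586 and 677 untreated in ARR22-ox, a change of -1.64. BETA-VPE, a vacuolar processing enzyme, fell by 1.97 and the subtilase ATSBT5.2 by 1.85, and AFR, an F-box gene of far-red light signalling, by 1.90 (1.54 without untreated replicate 3). The Col-0 changes of STOMAGEN, DI21, BETA-VPE, ATSBT5.2 and AFR lay between -0.27 and 0.045, and none passed. BAT1, a brassinosteroid-related acyltransferase, fell by 1.69 in ARR22-ox and 0.90 in Col-0. THI2.2, a thionin gene with 4.51, 24.9 and 6.49 after t-zeatin and 49.8, 41.9 and 41.7 untreated, changed by -2.30, or -1.18 with the offset. Its call was lost without the variance trend (limma adjusted p = 0.0675) and without untreated replicate 1 or 2 or t-zeatin replicate 1 or 3, where the change lay between -2.34 and -1.80 (limma adjusted p from 0.072 to 0.104). Leaving out untreated replicate 3 gave changes of -2.32 for SWEET13, -1.98 for STOMAGEN, -1.58 for DI21, -1.90 for BETA-VPE, -1.75 for ATSBT5.2, -1.55 for BAT1 and -2.34 for THI2.2.

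Transcripts of the plastid genome rose in part. Of 69 measured, 25 rose and 1 fell, against 9.44% and 10.4% of all genes, at a median of 0.51. The median of the same genes in Col-0 was 0.096, with none up and 1 down, against 13.1% and 11.3% of all genes. Without untreated replicate 3, 36 rose and 10 fell at a median of 0.26, against shares of 16.5% and 17.7% of all genes. On that array 54 of the 69 had a lower signal than on replicates 1 and 2, or 78.3% against 36.6% of all probe sets. psaA, a photosystem I reaction centre gene, had 2390.0, 2144 and 2492 with t-zeatin and 228, 240.4 and 46.6 untreated in ARR22-ox, a log2 change of 4.10, or 3.32 without replicate 3. Its Col-0 signals lay between 626 and 1056, above the untreated and below the t-zeatin arrays of ARR22-ox. rpl16, of the plastid ribosome, had 1554, 1664 and 1781 with t-zeatin and 225, 221 and 65.8 untreated and changed by 3.49, or 2.90 without replicate 3. psbC and psbD, neighbouring photosystem II genes, were closer on the 3 untreated arrays: psbC had 1661, 1751 and 1848 with t-zeatin and 229.6, 259 and 178 untreated, and psbD had 913, 971 and 1096 with t-zeatin and 192, 197 and 152 untreated. They rose by 2.997 and 2.47, or 2.85 and 2.35 without replicate 3, and their differences of responses of 3.19 and 2.82 were called. atpH, an ATP synthase subunit, rose by 2.65 and ycf4, a photosystem I assembly factor, by 2.44, or 1.97 and 1.76 without replicate 3, and ycf4 lost its call without t-zeatin replicate 2 or 3 (limma adjusted p = 0.0546 and 0.0559). Overlapping or cotranscribed plastid genes are not independent of each other.

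**Figure D4:**
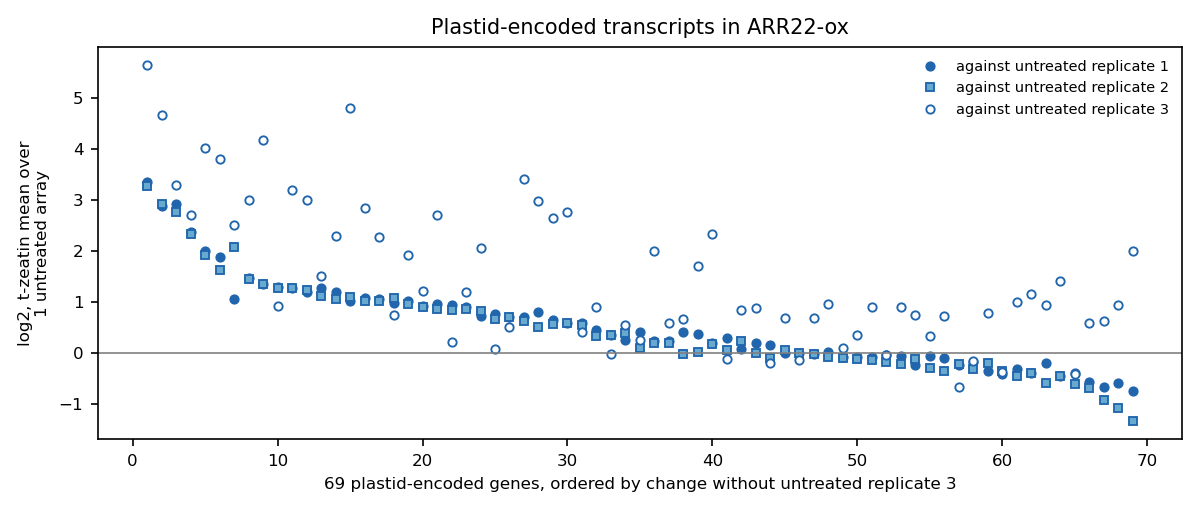
Log2 of the mean ARR22-ox t-zeatin level over the level on 1 untreated ARR22-ox array, for each of 69 plastid-encoded genes. Filled circles and squares use untreated replicates 1 and 2, and open circles use replicate 3. The values for replicates 1 and 2 follow each other closely, and those for replicate 3 lie above them for 54 genes.

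Of 10 measured nuclear genes of photosynthesis 2 fell, against 10.4% of all genes. They were PORB, an enzyme of chlorophyll synthesis, down by 0.42, and LHCB4.3, a light-harvesting protein gene, down by 0.57. Without untreated replicate 3, 9 of the 10 fell, against 17.7%. The median was -0.29 with and without that array, where PORB changed by -0.32 and LHCB4.3 by -0.72. PORB had 774, 743 and 769 with t-zeatin and 963, 937 and 1184 untreated in ARR22-ox. Its call was lost without untreated replicate 1 and without any 1 of the t-zeatin arrays (limma adjusted p from 0.0563 to 0.127), and that of LHCB4.3 without any array but untreated replicate 3 (from 0.0717 to 0.0978). All 10 fell in Col-0, against 11.3% of all genes, at a median of -0.42. No difference of responses was called with all 12 arrays, while 4 were called upward without untreated replicate 3, against 15.3% of all genes.

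Enzyme and protein families were grouped by symbol after earlier results were known, and the members named here were picked after their values were seen. Of 47 UDP-glycosyltransferases 14 rose and 4 fell, or 18 and 7 without untreated replicate 3. The shares of all genes were 9.44% and 10.4%, or 16.5% and 17.7% without it. In Col-0 9 of the 47 rose and 5 fell, against 13.1% and 11.3% of all genes. The difference of responses was called upward for 10 and downward for 6, against 11.0% and 14.4% of all genes, and its median was -0.14. UGT85A2 had 521, 617 and 597 with t-zeatin and 240.0, 252 and 208 untreated in ARR22-ox, a change of 1.31. UGT76B1, which conjugates the defence regulator isoleucic acid, had 195, 223 and 189 with t-zeatin and 96.0, 61.9 and 68.4 untreated, a change of 1.44, and UGT71C3 rose by 1.68. UGT76E12 rose by 2.39 in ARR22-ox and 1.42 in Col-0. The flavonoid enzymes UGT78D1 and UGT78D2 are among the 4 that fell. UGT73B5, a stress-induced member, rose by 0.92, a call lost without any 1 of the t-zeatin arrays (limma adjusted p from 0.0503 to 0.0668). With untreated replicate 3 left out, the changes were 1.23 for UGT85A2, 1.39 for UGT76B1, 1.70 for UGT71C3, 2.12 for UGT76E12 and 0.69 for UGT73B5.

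Of 11 tau-class glutathione transferases 6 fell and none rose, or 7 and none without untreated replicate 3. Of all genes 10.4% fell and 9.44% rose, or 17.7% and 16.5% without it. In Col-0 5 of the 11 fell and 1 rose, against 11.3% and 13.1% of all genes. GSTU20 had 605, 676 and 655 with t-zeatin and 1059.6, 1245 and 1061 untreated in ARR22-ox, with changes of -0.79 in ARR22-ox and -0.88 in Col-0. GSTU18 changed by -0.93 and -1.22, and GSTU22 by -1.25 and -0.57. The difference of responses was called downward for 1 of the 11 and upward for 1, against 14.4% and 11.0% of all genes. Serine carboxypeptidase-like genes numbered 29, of which 9 fell and 1 rose, against 10.4% and 9.44% of all genes. Without replicate 3, 11 fell and 2 rose, against 17.7% and 16.5%. SCPL49 had 486, 477 and 439 with t-zeatin and 760.1, 835 and 645 untreated in ARR22-ox, and scpl48 had 137, 136 and 122 with t-zeatin and 269, 258 and 227 untreated. SCPL49 fell by 0.67 and scpl48 by 0.93, while scpl48 rose in Col-0 by 0.82. Of 9 PRA1 proteins, which act in vesicle traffic, 2 rose, or 8 without untreated replicate 3, against 9.44% and 16.5% of all genes. PRA1.B4 had 163, 179 and 152 with t-zeatin and 78.3, 68.3 and 75.2 untreated, a change of 1.15. Of 15 IQD proteins, which bind calmodulin and microtubules, 6 fell and 1 rose, and 5 fell and 1 rose without replicate 3. The share of all genes that fell was 10.4%, or 17.7% without it. IQD31 had 109, 109 and 110.4 with t-zeatin and 145, 147 and 152 untreated, a fall of 0.44 lost without any 1 of the t-zeatin arrays (limma adjusted p from 0.0558 to 0.0602). Without replicate 3 the changes were -0.83 for GSTU20, -0.998 for GSTU18, -1.27 for GSTU22, -0.77 for SCPL49, -1.003 for scpl48, 1.17 for PRA1.B4 and -0.42 for IQD31.

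**Figure D5:**
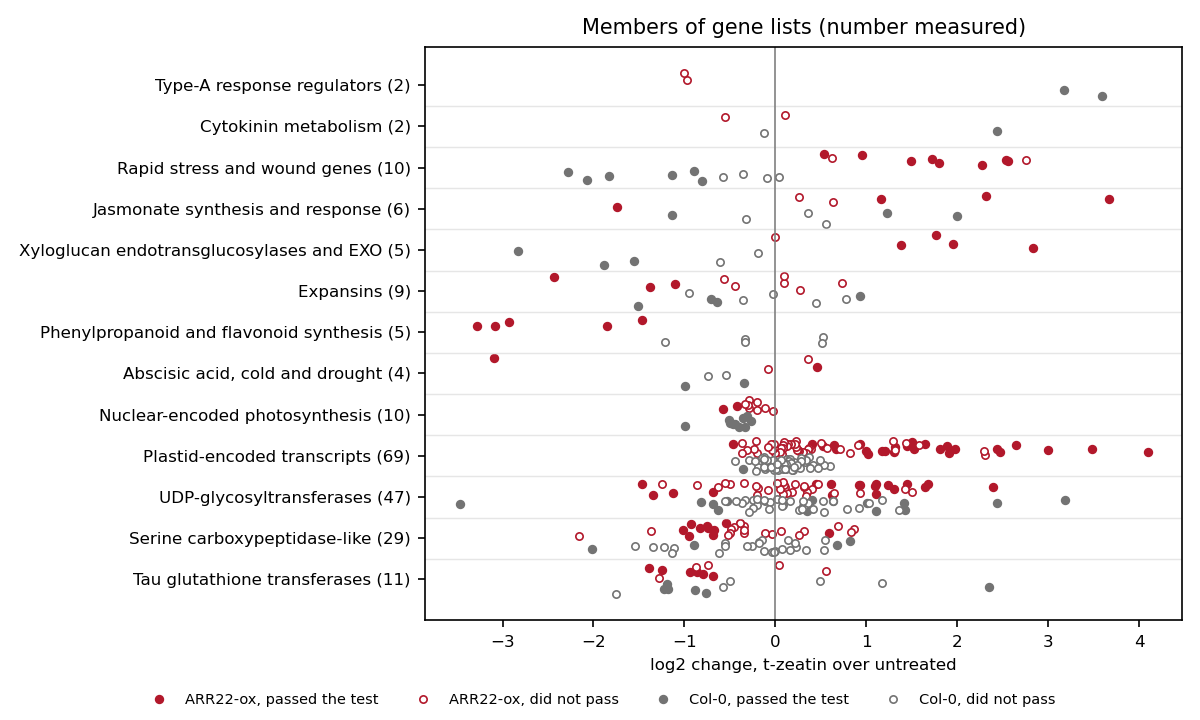
Log2 change, t-zeatin over untreated, of each measured member of 13 gene lists, with ARR22-ox in red above Col-0 in grey in each row. Filled points passed the test (ARR22-ox with its 6 arrays, Col-0 in the fit of all 12 arrays). The stress and xyloglucan lists lie to the right in ARR22-ox and to the left in Col-0, and the flavonoid list lies to the left in ARR22-ox.

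No organ marker passed the test with 6 arrays. The root gene PYK10 had signals between 1327 and 1425 with t-zeatin and between 1548 and 1774 untreated in ARR22-ox, and EXPA7 between 35.5 and 50.7 with t-zeatin and between 33.6 and 41.4 untreated. PYK10 passed without untreated replicate 3 at -0.23. The green shoot genes RCA and LHCB4.2 changed by -0.30 and -0.29 with 6 arrays, and passed without that array at -0.22 and -0.17. None of the listed flower or seed markers was measured under 1 name, and the part of organ shares in the results was not tested. In bulk plants, fewer cells of a type and less RNA per cell cannot be told apart. Of 30 lists, 24 had a measured member. The lists of brassinosteroid and gibberellin, nitrate, sulphate and phosphate, cellulose synthase and cell cycle genes had none.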

How the data were processed

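The authors deposited 1 intensity per probe set and array, MAS5 signal on a linear scale per the submitters' processing notes, with no version given, and scaling to a common level is shown by the values. These signals were converted to log2 as deposited. The 64 control probe sets were left out, and 22746 were tested with no filter on dim ones. Depth is not defined for arrays, and the 3 arrays per group limit the precision. Groups came from the source name and treatment labels.

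The ARR22-ox response was fitted to its 6 arrays with lmFit and eBayes with a variance trend in limma 3.58.1 under R 4.3.3. Tests were two-sided with Benjamini-Hochberg adjustment over all 22746 probe sets and a threshold of 0.05. The difference of responses and the Col-0 response came from 1 fit of all 12 arrays with 4 group means. A gene was named from a probe set paired with 1 gene in the given array table (13513 probe sets, with 503 paired with several genes and 8730 with none), through the RefSeq gene table of TAIR10.1, where 13436 were found. The brightest probe set stood for a gene. Genes that share near-identical copies may share signal.

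The rule for named genes took the 15 largest rises and falls called with and without ARR22-ox untreated replicate 3, with groups that do not overlap and the higher group mean at or above 39.0, the median signal. RR22 and members of the 30 written lists were added. Members and lists were chosen with earlier results of these data known. List counts are descriptions without a list test. Alternatives were a filter at the 40th percentile, an offset of 16, quantile scaling, equal medians, array weights, no variance trend, all 12 arrays and leaving out each array. In simulated arrays of the ARR22-ox comparison, with 22746 probe sets, 200 changes per size were planted, all in probe sets at or above the median level. Of these, 55.5% of changes with a log2 of 1 and 91% of those with a log2 of 2 were recovered. Recovery in dimmer probe sets was not simulated. Noise was normal with the same SD in both groups, so no simulated array stood apart as untreated replicate 3 does. Promoter motifs were planned and not run, and no sequence or coordinate is printed, because no sequence table was used here.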

Additional observations from a re-analysis of the deposited data

Results flagged for a closer look

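The results below stood out because the t-zeatin response of ARR22-ox differed from that of Col-0, by a limma test of the difference itself (adjusted p under 0.05 over all probe sets). Values are ARR22-ox minus Col-0 responses on the log2 scale, and a negative value means a lower response in ARR22-ox. Of 107 genes followed in the text, 85 had such a difference, and 24 of them were called in opposite directions in ARR22-ox and Col-0. Most of these genes were picked for their ARR22-ox change, which is part of the difference, so the count is no measure of how often the responses differ. Over all genes with 1 name 11.0% were called higher and 14.4% lower in ARR22-ox. Without ARR22-ox untreated replicate 3 all 85 differences were called in the same direction. The values of CCR2 and AT5G48490 moved by over 1.5 times, to 1.76 for CCR2 and -1.14 for AT5G48490.

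Among cytokinin-responsive genes the differences were -4.18 for RR16, -4.57 for ARR15 and -2.34 for UGT76C2. Among genes of stress and wounding they were 4.37 for STZ, 3.87 for CML38, 2.86 for CML42, 3.24 for WRKY22, 3.08 for PUB23, 2.66 for PUB22, 1.45 for WRKY6 and 1.43 for PUB24. Hormone, defence and cold genes gave 3.24 for GH3.3, 1.19 for IAGLU, 2.30 for PDF1.2, -2.30 for THI2.1, 1.86 for SAG101 and 0.81 for COR47. Wall genes gave 4.72 for XTH18, 4.60 for EXO, 3.51 for XTH33, 2.00 for XTH19, -1.84 for EXPA4, -0.75 for EXPB3 and -2.40 for EXPB1.

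Flavonoid genes gave -2.95 for AT4G14090, -2.59 for UF3GT, -2.45 for UGT78D1, -2.37 for AT5MAT, -2.17 for CHIL, -1.99 for UGT78D2 and -1.87 for DFR. Genes of iron, starch and glucosinolate metabolism gave -3.72 for AT1G47400, -2.04 for APL3, -1.80 for APL4 and -0.92 for BCAT4. Plastid genes gave 4.21 for psaA, 3.52 for rpl16, 3.19 for psbC, 3.09 for atpH, 2.82 for psbD and 2.31 for ycf4.

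Named rises gave 7.17 for AT2G43140, 6.32 for AT5G54720, 4.90 for AT5G62280, 4.69 for AT5G04310, 4.44 for AT3G23550, 4.23 for AT3G60420, 3.47 for AT4G28550, 3.46 for AT2G22880, 2.79 for AT5G48430, 2.74 for CCR2, 2.60 for AT5G12340 and 2.54 for AT5G62360. Named falls gave -3.56 for AT5G22430, -2.70 for AT2G20870, -2.55 for HIS1-3, -2.37 for AT1G10640, -2.31 for AT5G57785, -2.03 for AT1G67750, -1.84 for AT1G63240, -1.73 for AT5G48490, -1.57 for AT5G62210 and -1.56 for AT1G22160. Further rises gave 3.79 for ARL, 3.3 for EFR, 3.01 for AR781, 2.90 for ACA.l, 2.11 for SUFE2, 2.05 for GAT1_2.1, 1.39 for CML41, 1.13 for MSRB9, 2.01 for UGT71C3, 1.69 for UGT76B1, 1.23 for UGT85A2, 0.97 for PRA1.B4 and 0.75 for UGT73B5, and further falls -1.94 for AFR, -1.79 for STOMAGEN, -1.76 for scpl48, -1.71 for BETA-VPE, -1.61 for SWEET13, -1.59 for ATSBT5.2, -1.55 for DI21, -0.74 for IQD31 and -0.42 for SCPL49.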

How the results depend on the processing

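The count of probe sets called in the ARR22-ox response was 5123 with 6 arrays and 8516 with estimated array weights, 4261 up and 4255 down, where ARR22-ox untreated replicate 3 had a weight of 0.145 and the other 5 arrays between 1.35 and 1.57. Leaving out each array in turn gave between 2811 calls (without t-zeatin replicate 2) and 8789 (without untreated replicate 3), with 1434 to 4404 up and 1377 to 4385 down, from fewer arrays in each fit. The cause of the higher count was not tested. Under the other settings the count lay within 1.5 times of 5123. The difference of responses had between 5592 and 8574 calls under the same omissions, within 1.5 times of 6427.

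Signs turned for RR22 with quantile scaling (0.0382), for COR15A with array weights (-0.4441), for UGT76C2 when arrays were left out (-0.2338 to 0.4173), for COR15A likewise (-0.5844 to 0.8472) and for COR15B (-0.5587 to 0.2247). The cause was not tested. Of 96 called genes in the text, 16 lost the call without some array, 5 of them without some untreated array and 0 without untreated replicate 3. Without the variance trend 9 lost it, with equal medians 2 and with quantile scaling 1. Of the genes not called with 6 arrays, 3 passed with all 12 arrays, 4 with array weights and 2 with the filter at the 40th percentile. Without untreated replicate 3, 6 passed with their sign kept, and COR15A passed as well with its sign turned. None of the 96 changed sign under any alternative run, and 92 of the 107 genes followed in the text passed the filter at the 40th percentile. No paired analysis was possible because the labels number no replicates across groups, and numbers given in accession order tie no arrays together. Dim signals limit the size of a change, since an offset of 16 shrinks it.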

Other observations

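Other families, grouped by symbol after earlier results of these data were known, gave these counts in the ARR22-ox response, to be read against 9.44% of all genes up and 10.4% down. Counts without untreated replicate 3 are to be read against 16.5% up and 17.7% down, and Col-0 counts against 13.1% up and 11.3% down. Of 9 genes of the plastid NADH dehydrogenase-like complex and its assembly, which moves electrons around photosystem I, 5 fell and none rose, and 7 fell without untreated replicate 3. In Col-0 4 of the 9 fell and 1 rose. Of 6 CLE peptide genes, which encode small signals of meristems and vessels, 3 fell and none rose, with and without that array. Of 20 beta-glucosidases 4 rose and none fell, and 3 rose and 3 fell without it. Of 12 ubiquitin-specific proteases 3 rose and none fell, also without it, and 4 rose in Col-0. Of 8 autophagy genes 1 rose and 3 fell, against 5 falls and no rise in Col-0. Of 40 AGAMOUS-like factors 1 rose and 2 fell, or 4 and 4 without untreated replicate 3.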
